A study of Mus musculus with 38 samples.

Results

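SATB1 binding was described at the killer cell lectin-like receptor genes and their Clec2 neighbours on mouse chromosome 6. The members were taken from the GENCODE annotation vM1 (genome build NCBI37/mm9) as the genes of chromosome 6 whose symbols start with Klra, Klrb, Klrc, Klrd, Klre, Klrg, Klri, Klrk or Clec2. This gave 38 of the 37273 annotated genes of chromosomes 1 to 19, X and Y, and 34 of them were protein-coding, out of 22367 protein-coding genes. The other members are 3 annotated pseudogenes (Clec2f-ps, Klra11 and Klra14) and 1 processed transcript (Klra23). Of the 38 genes, 35 lie in 1 run with gaps under 1 Mb, from Klrb1a to Klra2. This run with 20 kb on each side, chr6:128539245-131217380, is called the cluster below, and it is 2.68 Mb long. Klrg2 (chr6:38576660-38587239), Clec2l (chr6:38613069-38630863) and Klrg1 (chr6:122220614-122232900) lie outside it.

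The proteins belong to the C-type lectin-like receptors of natural killer (NK) cells. Klra genes encode the Ly49 receptors, which bind classical MHC class I molecules, and most of them inhibit the cell while some, such as Klra4 (Ly49D) and Klra8 (Ly49H), activate it. Klrd1 (CD94) pairs with the NKG2 chains encoded by Klrc1, Klrc2 and Klrc3 and recognises the nonclassical molecule Qa-1, and Klrk1 (NKG2D) is an activating receptor for stress-induced ligands. Klrb1 genes encode the NKR-P1 receptors, Klrb1c among them being the NK1.1 antigen, and several of these bind Clr proteins encoded by the neighbouring Clec2 genes, as NKR-P1B binds the product of Clec2d. Base-unpairing regions (BURs) are DNA stretches prone to strand separation, built from sequence in which 1 strand lacks C or lacks G, and SATB1 is a nuclear protein that binds them.

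The data are 11 peak lists, and every library is from C57BL/6 mice. SATB1 was profiled in Satb1+/+ animals by urea ChIP-seq, in which cross-linked DNA is centrifuged through urea before shearing, with 2 replicates each of thymocytes, brain (cells of the cortex, in which the labels say that neurons alone express SATB1) and skin (primary epidermal keratinocytes). Standard ChIP-seq gave 2 further SATB1 lists of thymocytes, made with different antibodies. CTCF was profiled by urea ChIP-seq in 1 thymocyte and 1 skin library. The BUR map is 1 list of thymocyte genomic DNA fragments that bound recombinant SATB1 in vitro. Thymocyte mice were 13 days old by the protocol, though the titles of standard replicate 1 and of the thymocyte CTCF library give 6 weeks. The brain mice were 13 days old by the protocol but 5 and 6 weeks old by the age field. The skin mice were 5 days old by the protocol but 13 days old by the age field. The study's methods describe the skin as from newborn mice, which is neither of these ages, and give the age of the cortex donors in weeks. By the titles, the 2 urea SATB1 replicates of each tissue share an experiment number, while the standard replicates do not. The thymocyte urea replicates differ in antibody volume (4 and 2 ul). The standard replicates differ in the sonication time of their titles as well as in antibody (15 and 150 s), the skin replicates are titled 55 and 60 s, and the brain replicates 10 and 12 cycles. The labels name no animals. The study's reporting checklist describes its replicates as biological, from separate animals, without saying which libraries this covers. None of the samples is of NK cells and no RNA was measured, so the lists say where SATB1 or CTCF was found and nothing of whether a receptor was expressed. The lists held from 10846 peaks (skin urea replicate 2) to 238380 (BUR map) and give no read counts, so the depth behind a peak is unknown.

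The cluster held 356 BURs, or 133 per Mb, which was 1.52 times the density over chromosomes 1 to 19, X and Y. Over 978 genome windows of the same length the median was 198 BURs, and the quartiles were 127 and 313. Of the 356 BURs, 98 (27.5%) touched the body of a member gene, and 213 touched no annotated gene at all. Their median AT content was 71.3%, against 70.7% over all 232310 BURs of these chromosomes. Their median fold enrichment in vitro (signal at the summit over the local background) was 6.61, against 5.88 over all BURs. The receptor families arose by gene duplication, and 78.1% of the 50-base words of the cluster occurred once in the reference genome. The urea ChIP-seq reads were 50 bases long, with unique matches alone kept. Of the cluster BURs, 149 had under 90% unique words.

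BURs lay close to the start sites of the receptor genes. Of the 34 protein-coding members, 16 (47.1%) had a BUR within 1 kb of the annotated start, against 9.06% of all protein-coding genes. They were 3 of 12 in the Klrb/Clec2 part (Clec2h, Clec2e and Clec2d), 6 of 8 in the part with Klrc, Klrd1, Klre1, Klri and Klrk1, 6 of 11 Klra genes (Klra1, Klra2, Klra4, Klra6, Klra9 and Klra10), and Klrg1 outside the cluster. The median distance from start to nearest BUR was 1157 bp for the members and 7507 bp for all protein-coding genes. In the Klrc2 gene, which encodes an NKG2 chain, the distance was 56 bp, and at Klrk1 it was 430 bp. Since many members are copies of each other, they are not independent observations of this distance. The members also lie in sequence dense in BURs. Their windows of the body plus 20 kb on each side held a median of 118 BURs per Mb, against 44.0 for all protein-coding genes. Whether the starts lay closer to BURs than other positions of the cluster was not tested.

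Of the 356 BURs, 13 overlapped a peak of all 6 urea SATB1 lists. The sequences of 5 of the 8 with the highest mean fold enrichment over those lists are printed here, because they show what an AT-rich site of the receptor cluster bound in skin, thymocytes and brain looks like. Each is a stretch of 300 bases around the BUR summit on the plus strand of NCBI37/mm9, and the capitals mark the longest run without C or without G.
BUR before Klrb1f, chr6:128983866-128984165: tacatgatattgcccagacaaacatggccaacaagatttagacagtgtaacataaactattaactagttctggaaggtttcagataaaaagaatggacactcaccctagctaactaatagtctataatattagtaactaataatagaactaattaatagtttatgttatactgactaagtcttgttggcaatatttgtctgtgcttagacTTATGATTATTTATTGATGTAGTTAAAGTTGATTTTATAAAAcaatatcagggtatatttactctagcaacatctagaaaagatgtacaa
BUR in an intron of Klra1, chr6:130318651-130318950: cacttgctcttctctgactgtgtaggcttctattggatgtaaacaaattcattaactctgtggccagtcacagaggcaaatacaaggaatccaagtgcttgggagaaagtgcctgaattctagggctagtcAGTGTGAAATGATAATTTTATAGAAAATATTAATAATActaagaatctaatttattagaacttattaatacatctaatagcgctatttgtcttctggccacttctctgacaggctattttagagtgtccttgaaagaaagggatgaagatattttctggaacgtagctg
BUR in an intron of Klra2, chr6:131196211-131196510: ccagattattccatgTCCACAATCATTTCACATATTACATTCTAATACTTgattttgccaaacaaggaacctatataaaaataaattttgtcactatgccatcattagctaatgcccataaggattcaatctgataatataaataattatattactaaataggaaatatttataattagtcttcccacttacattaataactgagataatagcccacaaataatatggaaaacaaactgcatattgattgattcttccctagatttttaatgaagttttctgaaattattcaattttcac
first of the duplicated pair, chr6:130578376-130578675: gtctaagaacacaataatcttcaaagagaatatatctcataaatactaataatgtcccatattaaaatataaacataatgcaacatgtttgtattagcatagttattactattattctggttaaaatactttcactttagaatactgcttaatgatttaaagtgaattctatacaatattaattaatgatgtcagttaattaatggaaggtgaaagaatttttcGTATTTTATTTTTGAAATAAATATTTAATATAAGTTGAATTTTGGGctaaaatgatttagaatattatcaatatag
second of the duplicated pair, chr6:130787463-130787762: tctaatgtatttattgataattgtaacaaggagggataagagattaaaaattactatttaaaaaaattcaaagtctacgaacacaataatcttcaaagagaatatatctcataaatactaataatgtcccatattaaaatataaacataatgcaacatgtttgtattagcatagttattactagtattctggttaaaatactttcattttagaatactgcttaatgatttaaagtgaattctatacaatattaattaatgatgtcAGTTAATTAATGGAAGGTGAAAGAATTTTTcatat

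The first of these lies between genes, 11663 bp from the start of Klrb1f, an NKR-P1 receptor. Its run without C is 42 bases long and its fold enrichment in vitro was 14.5. In vivo it had 27.0- and 26.9-fold enrichment in the thymocyte lists, 22.5- and 22.04-fold in brain and 19.3- and 19.5-fold in skin. It was the BUR of the cluster with the highest mean over the 6 lists (22.9-fold). The second is intronic in Klra1, the gene of Ly49A, and stood at 27.5- and 28.9-fold in thymocytes, 18.6- and 16.8-fold in brain and 21.7- and 20.1-fold in skin. The third is intronic in Klra2 (Ly49B), with its edge 778 bp from the annotated start. Here the skin lists stood at 6.71- and 7.16-fold, the thymocyte lists at 22.3- and 19.3-fold and the brain lists at 24.1- and 22.8-fold. Fold enrichment is relative to the background of its own list, so these values order sites within a list and are not a measure of occupancy between tissues.

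The pair of duplicated sequences lies in the long stretch between Klra1 and Klra2, and they are near copies of each other. Over 228 aligned bases 224 (98.2%) were identical, and the longest identical run was 105 bases. Of the 50-base words of these BURs, 65.5% and 66.1% occurred once in the genome. Both copies nevertheless had a peak in all 6 urea lists. The first copy stood at 21.1- and 17.8-fold in thymocytes, 22.9- and 22.7-fold in brain and 6.71- and 7.57-fold in skin. The second stood at 16.9- and 15.9-fold, 22.8- and 23.8-fold, and 5.03- and 5.12-fold. In both copies the skin values lay below the medians of the whole skin lists (7.96- and 7.78-fold). The thymocyte and brain values lay above the medians of their own lists. A further site bound in all 6 lists, whose sequence is not printed, 13656 bp from the start of Klrb1-ps1, had 12.2 ± 1.16-fold enrichment in skin, 15.3 ± 2.58-fold in thymocytes and 18.2 ± 0.32-fold in brain (mean ± SD, n = 2 lists each).

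High enrichment in vitro was also found at BURs without a urea SATB1 peak, where it ran from 2.62- to 18.1-fold. Of those in the upper end of this range, one lies 27195 bp from the start of Klrb1c (15.9-fold in vitro) and another 8282 bp from that of Klra3, the gene of Ly49C (15.8-fold). No urea, standard or CTCF list had a peak on either of them, and 79.2% and 83.4% of their words were unique.

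Sharing of the cluster BURs between tissues was nested. The 13 BURs with a peak in both skin lists also had one in both thymocyte lists and both brain lists, and all 39 with a peak in both thymocyte lists had one in both brain lists. Over the rest of the genome the corresponding shares were 93.5% for skin in thymocytes, 93.0% for skin in brain and 97.6% for thymocytes in brain. Of the 39 thymocyte BURs, 33.3% were also in both skin lists, against 25.8% in the rest of the genome. Besides the 13 BURs of all tissues, 26 were shared by thymocytes and brain without both skin lists, 54 were in both brain lists and no other, 39 had another combination, and 224 had no urea SATB1 peak. The median in vitro fold enrichment of these groups was 10.9 for the 13 BURs of all tissues, 9.84 for thymocytes and brain, 7.42 for brain alone and 5.41 for no tissue. Median AT content ran from 68.8% to 71.7% across the same groups without following that order. The BURs without a peak had a median of 89.7% unique words and those of brain alone 100%, and the part of mappability in the grouping was not tested.

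**Figure D1:**
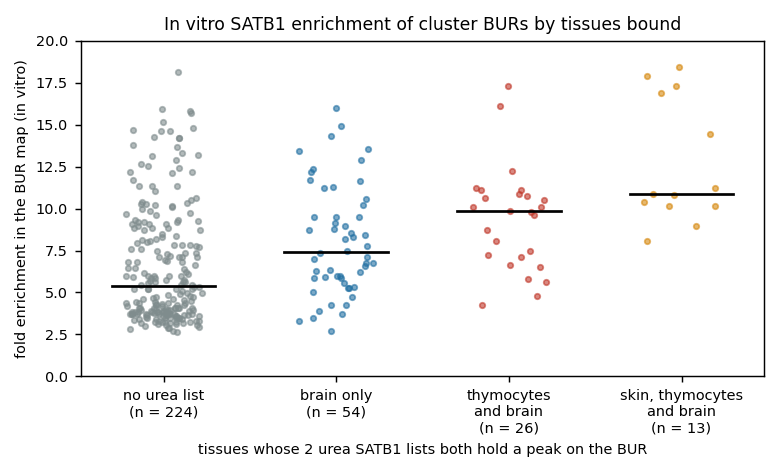
Fold enrichment in the BUR map (in vitro, linear axis) of the cluster BURs, 1 point per BUR, grouped by the tissues in which both urea SATB1 lists held a peak, with a line at the median. No urea list means a peak in none of the 6 lists, and the 39 BURs with other combinations are not drawn. The medians are 5.41, 7.42, 9.84 and 10.9 from left to right, and the groups overlap.

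The share of cluster BURs with a urea SATB1 peak was 4.78% and 3.93% in the skin lists, 12.1% and 11.5% in the thymocyte lists and 33.7% and 30.3% in the brain lists. The groups did not overlap. Brain exceeded skin by 27.7 percentage points. For the order skin, thymocytes, brain p was 0.0111 (Jonckheere-Terpstra statistic, one-sided, exact permutation of the lists), the smallest that the 90 arrangements allow. That order was taken from the study, which gives it for these tissues over the whole genome, so the p-value is no independent support for it. The 2 lists of a tissue share an experiment number but were permuted as separate units. The same order holds over the genome as a whole, where the rest of the BURs stood at 3.67 ± 0.0503% in skin, 13.8 ± 1.19% in thymocytes and 35.7 ± 2.08% in brain (mean ± SD, n = 2), so it is not particular to the receptors. It also follows the sizes of the lists. With each urea list cut to the 10846 peaks of highest −log10 q, the cluster shares were 4.21% in skin, 4.63% in thymocytes and 3.93% in brain, and the difference between brain and skin was -0.281 percentage points (p = 0.60 in the same exact permutation test). BURs bound in both lists of a tissue were 3.65% of the cluster BURs in skin, 11.0% in thymocytes and 27.0% in brain, beside 3.12%, 11.3% and 31.4% of all BURs.

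**Figure D2:**
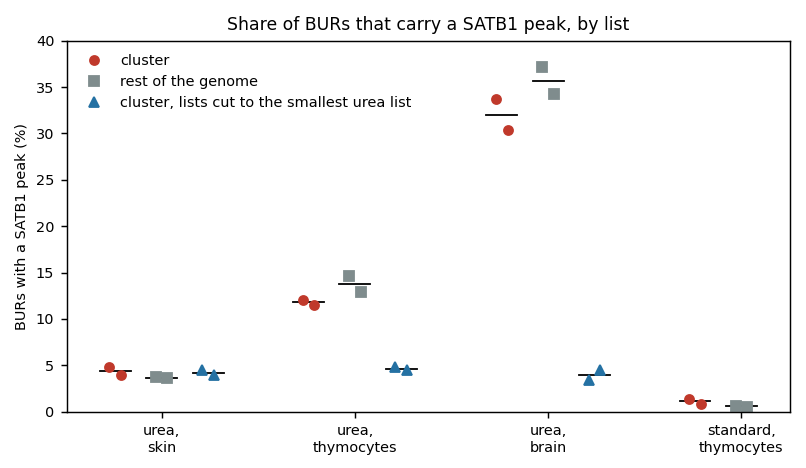
Percentage of BURs that overlap a SATB1 peak, 1 point per list, with the mean of the 2 lists of each group as a line. Circles are the 356 BURs of the cluster, squares the rest of the genome and triangles the cluster with urea lists cut to 10846 peaks. Cluster shares run from about 4% in skin to over 30% in brain with the lists as deposited, and lie between 3% and 5% with lists of equal size.

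Binding of BURs was uneven along the cluster. In the Klrb/Clec2 part, 46.1 ± 1.39% of 51 BURs had a brain peak, 22.5 ± 1.39% a thymocyte peak and 9.80% a skin peak in each list. In the part with Klrc, Klrd1, Klre1, Klri and Klrk1 the values for 34 BURs were 36.8 ± 6.24% in brain, 5.88% in each thymocyte list and 4.41 ± 2.08% in skin. The Klra part, with 209 BURs, had 26.8 ± 1.35% in brain, 9.57% in each thymocyte list and 3.83 ± 0.677% in skin (mean ± SD, n = 2 lists). The Klrb/Clec2 part was thus highest in all 3 tissues, a comparison within each list that was not tested. BURs with at least 90% unique words had a mean share of 39.1% in brain and 14.3% in thymocytes, and the 149 BURs below that had 22.1% and 8.39%. In skin these values were 4.35% and 4.36%. Among BURs with at least 90% unique words, the brain share was 43.8% in the Klrb/Clec2 part, 55.3% in the part with Klrc and Klrk1 and 35.9% in the Klra part, so the order of the first 2 was turned.

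In all 3 tissues the share also rose with the in vitro enrichment of the BUR. In 4 groups of in vitro fold with limits at the quartiles over all BURs, from low to high, the mean brain share of cluster BURs was 10.0%, 26.7%, 39.9% and 47.3%. In brain the rest of the genome had 21.0%, 32.3%, 43.4% and 46.5%. The receptor BURs thus lay below the rest of the genome in the lower 3 groups and near it in the highest. Their shares were 1.05%, 5.83%, 10.1% and 25.4% in thymocytes and 0%, 0.833%, 1.69% and 12.1% in skin. These too lay below the rest of the genome in the lower 3 groups. In the highest group the rest of the genome had 25.3% in thymocytes and 8.74% in skin. Of the cluster BURs, 112 fell in the highest group. These shares, and the part of mappability in them, were not tested.

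Peaks of the urea SATB1 lists in the cluster numbered 54 and 49 in thymocytes, 149 and 136 in brain and 19 and 16 in skin. Per 10000 peaks of a list, this was 12.3 ± 0.435 in thymocytes, 12.5 ± 0.121 in brain and 15.9 ± 1.55 in skin (mean ± SD, n = 2). No difference among the 3 tissues passed the test (p = 0.13, exact permutation test of the between-group sum of squares), and the smallest p this design allows is 0.067. Of the cluster peaks, 44 of 54 and 42 of 49 lay on a BUR in thymocytes, 118 of 149 and 108 of 136 in brain, and 18 of 19 and 15 of 16 in skin. In the whole lists between 72.8% and 79.4% of urea SATB1 peaks lay on a BUR.

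Counted by gene, a window of the body plus 20 kb on each side held a BUR for all 34 protein-coding members, against 86.6% of all protein-coding genes. The median was 118 BURs per Mb of window for members and 44.0 for all genes. A brain urea SATB1 peak in both replicates was found for 33 of the 34 members (97.1%), against 58.3% of all protein-coding genes. The exception was Klrg1, a receptor for E- and N-cadherin, with 5 BURs and no urea SATB1 peak in any list. For thymocytes the count was 22 members (64.7%) against 40.4%, and for skin 11 members (32.4%) against 18.2%. The median over members was 55.4 brain peaks and 18.98 thymocyte peaks per Mb, beside 17.5 and 0 over all genes. These counts depend on the flank and on the size of the list. Within 5 kb of the body the members were 24 in brain, 14 in thymocytes and 5 in skin, beside 40.9%, 26.5% and 11.9% of all protein-coding genes. With the lists cut to 10846 peaks they were 8 in brain, 8 in thymocytes and 11 in skin, beside 13.7%, 16.9% and 18.1% of all protein-coding genes. Where the peaks of the 2 replicates also had to overlap each other, 32 members were left in brain, 21 in thymocytes and 11 in skin, beside 56.9%, 39.4% and 18% of all protein-coding genes, and Klrb1b was the member lost in brain and in thymocytes. Neighbouring windows overlap, so that 1 peak can count for several members.

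**Figure D3:**
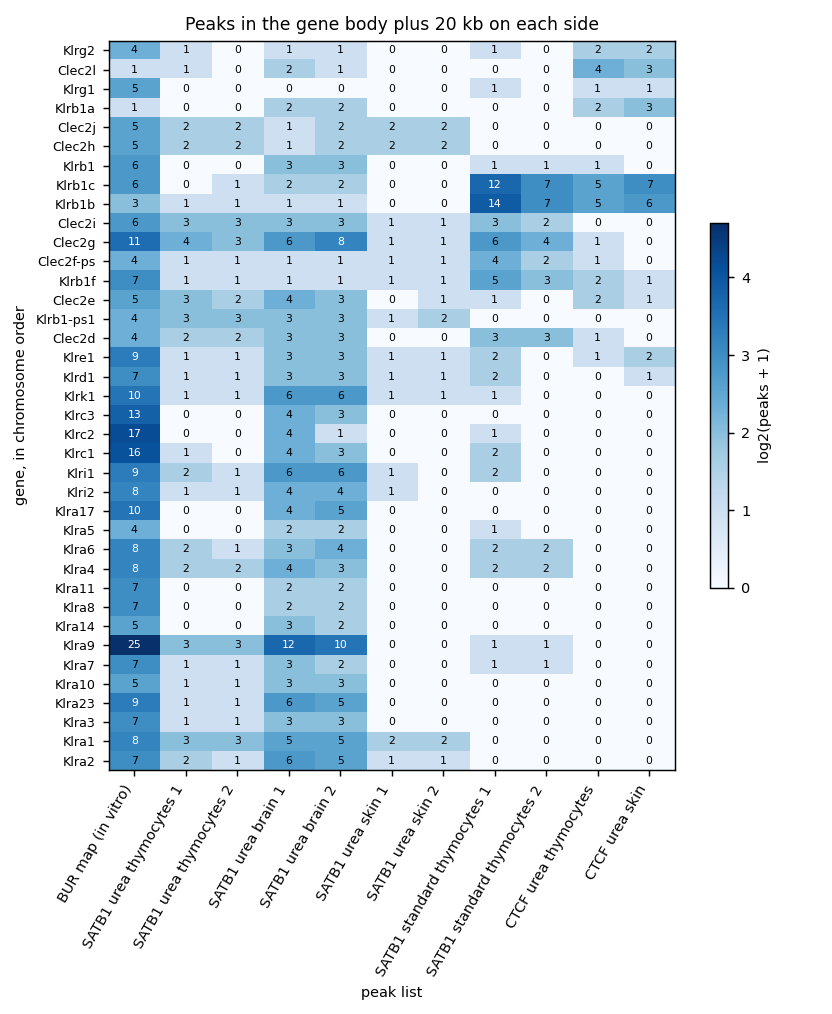
Number of peaks of each of the 11 lists in the body plus 20 kb on each side of the 38 member genes, in chromosome order, with colour on a log2(peaks + 1) scale. Urea SATB1 peaks occur from Klrb1a to Klra2, while CTCF peaks occur outside the cluster and as far as Klre1 and Klrd1 and are 0 from Klrk1 to Klra2.

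Thymocyte urea SATB1 peaks differed among the NKR-P1 genes. Of all protein-coding genes, 40.4% had one in both replicates. Klrb1, Klrb1a and Klrb1c had no thymocyte peak in replicate 1 and at most 1 in replicate 2 in their windows. Klrb1b, the inhibitory receptor, had 1 peak in each replicate, but at different places, 5099 bp from its start in replicate 1 and 25649 bp in replicate 2, where the second is the peak counted for Klrb1c. Klrb1f had 1 thymocyte peak in each replicate, at the same site. In skin, 18.2% of all protein-coding genes had a peak in both lists. Klrb1f had 1 skin peak in each list, and Klrb1a, Klrb1, Klrb1c and Klrb1b had none. Klrb1-ps1, annotated as protein-coding in spite of its symbol, had 3 thymocyte peaks and 3 brain peaks in each replicate, and 1 and 2 skin peaks. All of these genes had a brain peak in each replicate, against 58.3% of all protein-coding genes. For Klrb1b the brain peaks again lay at different places.

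The Clec2 genes, which encode the Clr ligands of NKR-P1 receptors, had skin peaks in both lists at Clec2j, Clec2h, Clec2i and Clec2g. Clec2j and Clec2h, whose windows overlap, had 2 peaks in each skin list and 2 in each thymocyte list. Clec2g, with a body of 86 kb by the annotation, had 4 and 3 thymocyte peaks, 6 and 8 brain peaks and 1 peak in each skin list. Clec2e had a peak at its start in thymocytes (110 and 48 bp from the start in replicates 1 and 2) and in brain (28 and 0 bp). Clec2d had 2 thymocyte peaks in each replicate and no skin peak. Clec2l, outside the cluster, had 1 thymocyte peak in replicate 1 and none in replicate 2.

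In the middle of the cluster the windows of the activating receptor gene Klrk1 and the CD94 gene Klrd1 held 1 thymocyte and 1 skin peak in each list. It was the same site for both genes, in an intron of Klrd1 and outside the body of Klrk1. The window of Klre1 held it too. Its thymocyte enrichment was 5.84-fold in replicate 1 and 23.3-fold in replicate 2. Klrk1 had 6 brain peaks in each replicate and Klrd1 had 3. Among all protein-coding genes, 40.4% had a thymocyte peak in both replicates and 18.2% a skin peak in both. The 3 Klrc genes, whose windows overlap, had 13 to 17 BURs each, no thymocyte peak in both replicates and no skin peak. Their brain peaks numbered 4 and 3 for Klrc3, 4 and 1 for Klrc2 and 4 and 3 for Klrc1. Only 46.7% of the words of Klrc2 and 51.9% of those of Klrc1 were unique in the genome, and 74.1% of those of Klrc3. The part of mappability in the low counts was not tested. Klri1 and Klri2, whose products pair with Klre1, had 6 and 4 brain peaks in each replicate, and their single skin peak was seen in replicate 1 alone.

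All 14 Klra genes had a brain peak in both replicates, pseudogenes included, against 58.3% of all protein-coding genes. Thymocyte peaks in both replicates were found for 8 of the 11 protein-coding Klra genes, against 40.4% of all protein-coding genes. Klra17, Klra5 and Klra8 had none in either replicate. Klra8 encodes Ly49H, the receptor for a cytomegalovirus protein, and its body had 61.2% unique words. Klra4 (Ly49D) had 2 thymocyte peaks in each replicate and 4 and 3 brain peaks. Klra9, whose annotated body of 157 kb spans several other Klra genes, had 3 thymocyte peaks in each replicate and 12 and 10 in brain. Its window overlaps those of Klra7, Klra10 and Klra3, so the thymocyte calls of these genes are not separate. In skin, Klra1 (2 peaks in each list) and Klra2 (1 in each) were the 2 Klra genes with peaks. Of all protein-coding genes, 18.2% had a peak in both skin lists. At the start sites, 7 of the 34 protein-coding members had a brain peak within 1 kb in both replicates, against 3.59% of all protein-coding genes. They were Clec2e, Klrk1, Klra4, Klra7, Klra10, Klra1 and Klra2. In thymocytes they were Clec2e and Klra2, against 1.44% of all genes, and in skin Klra2, against 0.483%.

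Standard SATB1 ChIP-seq of thymocytes gave another picture of the cluster. Its 2 lists held 71 and 42 peaks there, of which 5 and 3 lay on a BUR, and 33 sites were in both lists. Of the 34 protein-coding members, 11 (32.4%) had a standard peak in both replicates, against 64% of all protein-coding genes, where the count with urea had been above that of all genes. Standard replicate 1 alone had a peak for 21 members (61.8%), against 75.1% of all protein-coding genes. With 5 kb flanks 6 members were left, against 53.6%, and with overlapping peaks of the 2 replicates 10, against 61.9%, Klrb1 being lost. Per 10000 list peaks the cluster share was 15.1 ± 0.519 with the standard method and 12.3 ± 0.435 with urea (mean ± SD, n = 2). The urea value was lower by 2.81 in the mean, and each urea list lay below each standard list. With 2 lists against 2 the exact two-sided permutation test gave p = 0.33, the smallest it allows. The position of the peaks differed more than their number. Of 54 and 49 thymocyte urea peaks, 0 and 2 overlapped a peak of standard replicate 1 and 1 and 2 a peak of standard replicate 2. Over the whole lists 0.759% and 0.895% of thymocyte urea peaks overlapped standard replicate 1 and 0.599% and 0.694% replicate 2, so the low overlap is not particular to the cluster.

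The standard sites lay in the first part of the cluster. Of the 33 sites, 20 touched the Klrb/Clec2 part and 11 the interval from Clec2d to Klre1, where non-member lectin genes and Cd69 lie. None touched the part with Klrc, Klrd1, Klre1, Klri and Klrk1, and 2 touched the Klra part, next to Klra6 and within Klra9. The density of standard peaks was 3.56 and 3.93 times that of the genome in the Klrb/Clec2 part and 0.235 and 0.209 times in the Klra part. In the same parts the thymocyte urea lists stood at 1.54 times in both replicates and at 1.08 and 1.21 times the genome. Thus both methods had peaks in the Klrb/Clec2 part, while in the Klra part urea peaks (26 and 25) outnumbered standard peaks (6 and 3). Unique words were 81.6% of the Klrb/Clec2 part and 71.4% of the Klra part, and the part of mappability in these densities was not tested.

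**Figure D4:**
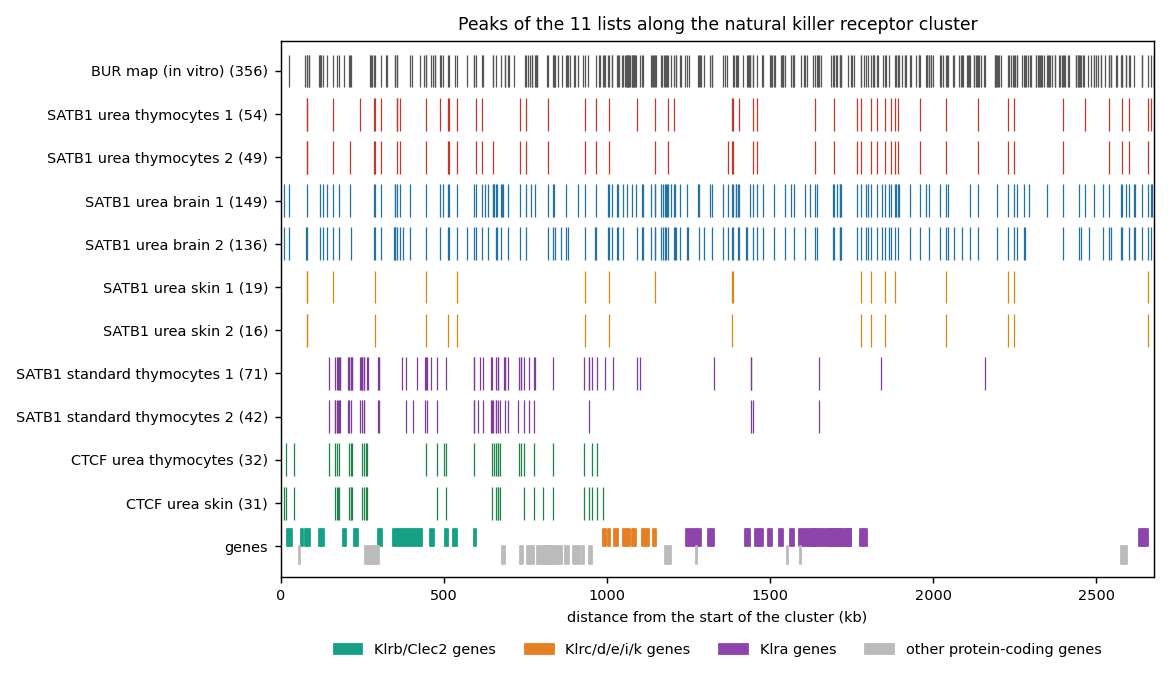
Position of every peak of the 11 lists along the cluster, as distance from its start in kb, 1 tick per peak, with the number of cluster peaks of each list beside its name. Bars at the bottom are member genes by part and, below them, other protein-coding genes. BURs and urea SATB1 peaks run through the whole cluster, while standard SATB1 peaks thin out and CTCF peaks stop before the Klra genes.

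The 6 standard sites of highest mean fold enrichment all lay before Klre1. The first, chr6:129160317-129160850, lies in an intron of a long noncoding RNA gene (2310001H17Rik), 29684 bp from the start of Clec2d, with 19.7- and 17.8-fold enrichment. The second is intergenic, 9028 bp from the start of Cd69, an early activation marker of lymphocytes (16.6- and 10.3-fold). The third is intergenic, 13827 bp from Klrb1c (15.4- and 9.94-fold), and the fourth 8594 bp from Klrb1f (12.5- and 10.9-fold). The fifth, 1919 bp from the start of 4922502D21Rik, had 15.7- and 5.42-fold enrichment, so the replicates were far apart. The sixth, chr6:129130398-129131191, covers the start and a coding exon of Clec2d (11.1- and 9.08-fold). None of the 6 overlapped a BUR or a urea SATB1 peak, and of all 33 sites 1 overlapped a urea SATB1 peak.

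Klrb1c and Klrb1b had the most standard peaks of the members. In the window of Klrb1c they were 12 and 7 and in that of Klrb1b 14 and 7, and at least as many were found for 1.43% and 0.948% of all protein-coding genes. The 87.8 kb that the 2 windows span together held 19 and 11 standard peaks with 11 sites in both lists. It also held 7 CTCF sites shared by thymocytes and skin, and 1 thymocyte urea peak in each replicate, which did not overlap. At start sites, Clec2i and Clec2d had a standard peak in both replicates within 1 kb. This was 2 of 34 members (5.88%), against 38.2% of all protein-coding genes.

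CTCF, an insulator protein whose sites often bound chromatin loops, was mapped with urea in 1 thymocyte and 1 skin library. The cluster held 32 thymocyte and 31 skin CTCF peaks, and 25 sites were in both lists. None of the peaks lay on a BUR, beside 2.57% of the whole thymocyte and 3.902% of the whole skin list. No CTCF peak of either list lay in the 1.69 Mb from Klre1 to the end of the cluster, which held 261 BURs, 32 and 28 thymocyte urea SATB1 peaks and 10 and 3 standard SATB1 peaks. The density of CTCF peaks in the Klrb/Clec2 part was 3.87 times that of the genome in thymocytes and 2.21 times in skin. A thymocyte CTCF peak was present for 12 protein-coding members (35.3%), against 61.6% of all protein-coding genes, and a skin CTCF peak for 10 (29.4%), against 72.1%. Of the members, 9 (26.5%) had a CTCF peak in thymocytes and in skin, against 59.2% of all protein-coding genes, and they were Klrg2, Clec2l, Klrg1, Klrb1a, Klrb1b, Klrb1c, Klrb1f, Clec2e and Klre1. The start of Klra1 was 827239 bp from the nearest thymocyte CTCF peak and 811211 bp from the nearest skin one. Beyond the cluster, the 2 Mb that follow it had 0.328 and 0.723 times the genome density of CTCF in thymocytes and skin, and the 2 Mb before it 2.298 and 2.13 times.

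**Figure D5:**
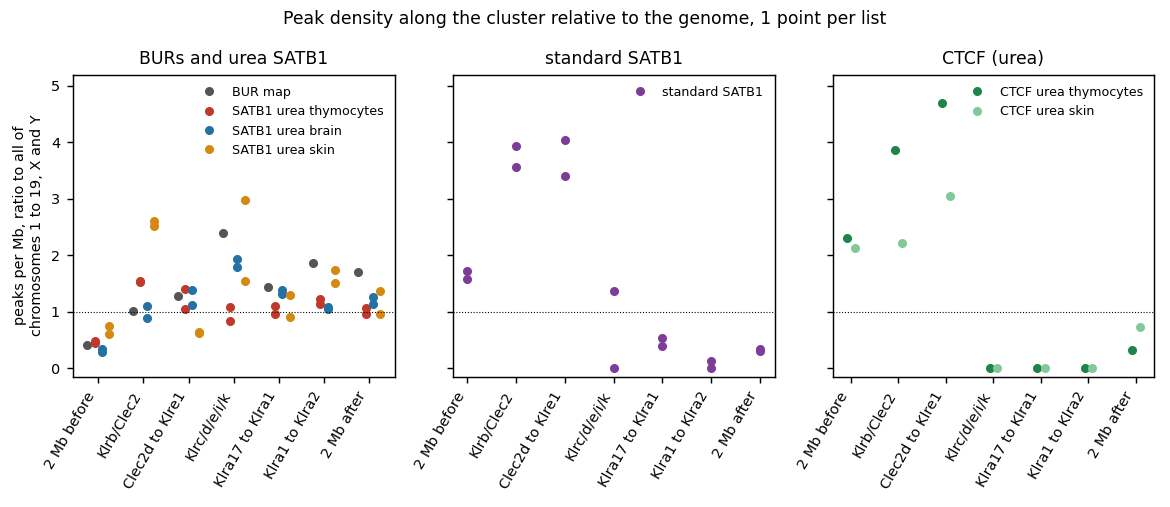
Peaks per Mb in parts of the cluster and in the 2 Mb on each side, divided by the density over chromosomes 1 to 19, X and Y, 1 point per list (linear axis, dotted line at the genome's density). Standard SATB1 and CTCF lie above the line up to the interval from Clec2d to Klre1. From Klrc/d/e/i/k onward CTCF is 0 within the cluster and standard SATB1 is at or below 1.37, while BURs and urea SATB1 lists stay near or above the line.

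Standard SATB1 and CTCF peaks coincided often in the cluster. Of the 32 thymocyte CTCF peaks, 25 (78.1%) overlapped a peak of standard replicate 1 and 14 (43.8%) one of replicate 2, and over the whole CTCF list these shares were 52.8% and 23.8%. In the other direction, 25 of the 71 peaks of standard replicate 1 (35.2%) and 14 of the 42 of replicate 2 (33.3%) overlapped a thymocyte CTCF peak. No thymocyte urea SATB1 peak of the cluster overlapped a CTCF peak of thymocytes or skin, and over the whole lists between 0.523% and 0.867% did. The site of highest mean CTCF enrichment was in an intron of Clec1a that is also an untranslated exon part of Clec9a (11.1-fold in thymocytes and 10.5-fold in skin). The next near a member gene was intergenic, 28050 bp from the start of Klrb1c (8.03- and 11.4-fold), where 57.7% of the words were unique. The one 21132 bp from the start of Klrb1f stood at 9.31- and 9.37-fold. All 6 of the CTCF sites of highest enrichment overlapped a peak of standard SATB1 replicate 1, and 4 of them one of replicate 2. Each CTCF list is 1 library, so no spread can be given for it.

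Other lectin and NK genes were compared by the same windows. Of 19 other C-type lectin and neighbouring receptor genes, 18 were found under their symbol, 17 of them on chromosome 6 and Clec10a on chromosome 11. All 18 had a BUR in the window, against 86.6% of all protein-coding genes. A urea SATB1 peak in both replicates was found for 16 (88.9%) in brain, 9 (50.0%) in thymocytes and 5 (27.8%) in skin. The shares of all protein-coding genes were 58.3%, 40.4% and 18.2%. A standard peak in both was found for 3 (Cd69, Clec12a and Clec12b, 16.7%), against 64%. Some of the 18 genes, these 3 among them, lie inside the cluster, so their windows hold cluster peaks counted above. Of 45 genes of NK ligands, signalling, killing and transcription factors on several chromosomes, 40 were found. A standard SATB1 peak in both replicates was present for 32 of the 40 (80.0%), and a thymocyte urea peak for 20 (50.0%), beside the 64% and 40.4% of all protein-coding genes. The adaptor genes Tyrobp and Hcst, which transmit the signals of activating receptors and lie side by side, had 2 thymocyte urea peaks in each replicate. Of the other adaptor and signalling genes, Zap70, Ptpn11, Vav1 and Plcg2 had a peak in each replicate. Fcer1g, Ptpn6, Sh2d1a and Sh2d1b1 had none. Nkg7 also had a peak in each replicate, while Prf1, Gzma, Gzmb, Ifng and Fasl had none. Among ligand genes of NKG2D, H60b had 3 and 4 and Raet1c 2 and 2 thymocyte urea peaks, and H60c had none.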

How the data were processed

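Peak lists of 11 samples of the series were analysed. The other samples (Satb1-/- and input libraries, Hi-C, 4C-seq and a second thymocyte CTCF library among them) are not used here. The replicate numbers follow the sample titles; the study's supplementary material numbers the thymocyte urea replicates the other way.

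Per the labels and the methods, the authors aligned reads with bowtie2 2.3.1 to NCBI37/mm9, keeping unique matches with up to 3 mismatches in the seed, and MACS2 2.2.7 called the peaks of each library, with 0.01 as the q-value limit. The deposited fold enrichment is a ratio, by which summit signal exceeds that library's own local background. The −log10 p-value and −log10 q-value of each peak, the display score and the summit position were also made by the authors' peak caller. The score was not used. The deposited lists hold no counts, so depth and counting error are unknown, and precision is the spread between 2 lists.

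Genes came from GENCODE vM1 and sequence from NCBIM37. An overlap needed 1 shared bp or more. Gene windows were the body plus 20 kb on each side. Start sites were the outer 5′ ends of the genes. Uniqueness was the share of 50-base words of a region that occur once in the genome, counting both strands. The cluster was the run of members with gaps under 1 Mb that holds Klrk1. Python 3.11.15, numpy 2.4.6, pandas, numba 0.67.0, pysam 0.24.0 and matplotlib 3.10.9 were used. The permutation tests, the overlap and the word counts were checked on simulated data.

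The share of cluster BURs bound was tested in the order skin, thymocytes, brain, and the share of list peaks in the cluster was compared between tissues and between methods, with exact permutation tests over lists and a threshold of 0.05. Counts of members were set beside all protein-coding genes with no test. Named sites were at most 8 BURs with a peak in all 6 urea lists and 6 standard SATB1 and 6 CTCF sites in both lists, each by mean fold enrichment, and the 3 BURs of highest in vitro enrichment without a urea peak, of which 1 is not reported here. The alternatives tried were peaks with −log10 q from 5 upward, other cluster limits and flanks, a summit or 50% overlap, lists of equal size, unique sequence alone, the lists without regions that hold a peak in every one of them, a replicate block and each list left out. Equal list sizes and overlapping peaks of the 2 lists, for the counts of members, were added after seeing the data. Otherwise a member counted as called in both replicates when each list had a peak in its window, at the same place or not. The members, gene lists and tests were chosen with earlier results of these data known.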

Additional observations from a re-analysis of the deposited data

How the results depend on the processing

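Of the 14 alternatives for the share of cluster BURs bound by SATB1, 13 kept the order and its side of the threshold. The exception was the set of urea lists cut to the 10846 peaks of highest −log10 q, where the difference between brain and skin was -0.281 percentage points. Leaving out 1 list at a time gave differences from 25.98 to 29.4 percentage points (p = 0.033, exact permutation test, the smallest possible). The replicate block, with labels moved only between lists of the same number, left the difference at 27.7 with p = 0.028 (exact permutation test, 36 arrangements, the smallest possible). The labels name no batch shared by same-numbered lists of different groups. The correlation of the difference between replicates 1 and 2 over gene windows lay between -0.026 and 0.028 for the pairs of groups. Such a correlation cannot show whether the lists shared a batch. The difference between urea and standard ChIP-seq in the share of list peaks was -2.81 with the replicate block (p = 0.50, exact permutation test) and ran from -3.18 to -2.44 with 1 list left out, and the difference between brain and skin in that share was -3.31 with the replicate block (p = 0.33, exact permutation test) and ran from -4.40 to -2.21. These designs cannot pass the threshold. With peaks of at least 90% unique words alone, the last difference was -0.18, and the cause was not tested.

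With 5 kb flanks the members with a peak in both replicates numbered 14 in thymocytes, 5 in skin and 6 with the standard method, and 3 had CTCF in both lists, beside 26.5%, 11.9%, 53.6% and 40.3% of all protein-coding genes. With the gene body alone they numbered 10 in thymocytes, 18 in brain, 4 in skin, 4 with the standard method and 1 with CTCF, beside 20.6%, 31%, 9.53%, 44.7% and 27.6%. With urea lists of equal size they numbered 8 in thymocytes and 8 in brain. With 1 list left out the counts were 23 to 25 in thymocytes, 33 in brain, 12 to 13 in skin and 11 to 21 with the standard method, where 21 is the count of standard replicate 1 alone. All other alternatives stayed within 1.5 times the count. Depth is unknown, so a window without a peak says only that none was called, and in duplicated sequence fewer reads could be placed.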
